A study of Homo sapiens with 12 samples.

Results

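Sorafenib was added to perifosine in HDLM-2 cells, an established human Hodgkin lymphoma cell line, and gene expression was compared with that of cells given perifosine alone. The comparison took every array that the sample titles place in either group, 3 arrays of perifosine with sorafenib and 3 of perifosine, which is 6 of the 12 arrays of the study. Cells were cultured for 24 h with 10 µM perifosine, or with 10 µM perifosine and 5 µM sorafenib, and the further groups, again of 3 arrays each, were untreated cells and cells given 5 µM sorafenib alone. All groups are the same cell line with no engineered change, so that perifosine is what the groups of the main comparison share and sorafenib is what differs. The labels do not say that the 3 samples of a group were grown apart, and the p-values therefore rest on a spread among samples that could be technical only.

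Perifosine is an alkylphospholipid that enters membranes and lowers AKT activity. Sorafenib inhibits RAF kinases, which act above MEK and ERK, and several receptor tyrosine kinases. Active ERK induces the immediate-early transcription factors such as EGR1 and FOS, together with the DUSP phosphatases that switch ERK off again. The integrated stress response is a separate pathway, in which stress kinases slow translation and the factor ATF4 induces genes for amino acid synthesis, uptake and tRNA charging.

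Of the genes named by the 48803 probes of the array, 13626 had a probe above background on at least 3 of the 12 arrays. Values below are log2 signals after background correction and normalization, changes are differences of mean log2 signal with their standard error (SE), and 1 unit is a doubling. Levels are not compared between genes, because each probe has its own brightness. The 7 Hodgkin cell markers were above background on all 6 arrays, and their summed log2 signal was 79.7 to 80.5 on the perifosine arrays and 81.7 to 82.3 on the combination arrays. Of markers of other cells, the B cell gene PAX5, the T cell gene CD8A, the fibroblast genes COL1A2 and COL3A1 and the endothelial genes CDH5 and VWF were above background on none of the 6 arrays. Others were above it on all 6, namely MS4A1 of the B cell list, CD2 of the T cell list, PECAM1 of the endothelial list and CSF1R, FCGR3A and ITGAM of the myeloid list, and no myeloid marker was absent from all 6. CD2 was bright, with a mean log2 signal of 13.76 with perifosine and 13.80 with the combination. The summed marker signals of B cells (25.8 to 27.4 against 25.9 to 27.3), T cells (40.0 to 40.2 against 39.8 to 40.4), myeloid cells (38.3 to 40.1 against 39.5 to 40.1), fibroblasts (31.4 to 32.8 against 31.6 to 32.2) and endothelial cells (25.3 to 26.1 against 25.4 to 26.6) overlapped between perifosine and the combination. Their part in the results was not tested. Within the perifosine group, replicate B correlated with A at 0.9901 and with C at 0.988, and A with C at 0.9943. Perifosine replicate B and sorafenib replicate C shared deviations from their group means (Pearson r = 0.387 across genes, which are not independent replicates). In an alternative fit that weighted the arrays, these 2 had the lowest weights, 0.371 and 0.471. Calls that this pair of arrays changed are named with the genes concerned.

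Adding sorafenib raised 72 genes and lowered 22 genes relative to perifosine alone, 94 of 13626 genes tested at an adjusted p under 0.05, or 0.690% (0.528% higher and 0.161% lower). These shares apply beside each count of called list members below. The lists were chosen with earlier results of these data known, so such counts are not tests. The genes that rose furthest encode a cytochrome P450 enzyme, CYP4Z1, the urea cycle enzyme ASS1 and the complement regulator C4BPB, and those that fell furthest were the hair keratin-associated proteins KRTAP9-4 and KRTAP9-3 and the non-coding transcript MIR503HG. Without background correction CYP4Z1, ASS1 and C4BPB changed by 0.90, 0.90 and 1.01, so the size and order of these rises depend on that step. Changes were small, with 12 genes past 2-fold, of which 7 rose and 5 fell, and the smallest called change was 0.46. The median change over all genes tested was -0.0013, and 49.8% of them had a change above 0. The 6 arrays did not overlap between the groups for 2471 genes, or 18.1% of those tested (9.85% higher and 8.29% lower in the combination), and all 94 called genes were among them.

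**Figure D1:**
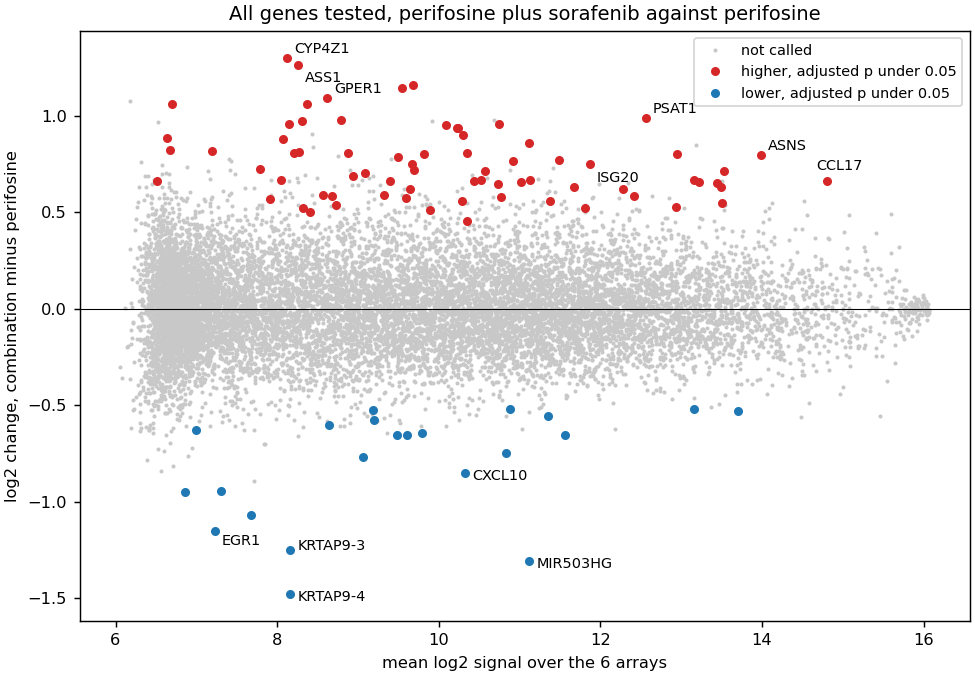
Change in log2 signal on adding sorafenib to perifosine (vertical axis) against the mean log2 signal over the 6 arrays (horizontal axis), 1 point per gene for 13626 genes. The 72 called rises (red) and 22 called falls (blue) overlap in size with some uncalled changes (grey), since a call also depends on the SE. The called changes run from -1.48 for KRTAP9-4 to 1.30 for CYP4Z1.

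CYP4Z1, a fatty acid hydroxylase of the cytochrome P450 family, had log2 signals of 7.80, 7.42 and 7.19 on perifosine arrays A, B and C and of 8.92, 8.77 and 8.62 on combination arrays A, B and C. Every combination array was above every perifosine array, and perifosine array A lay nearest to the combination. The change was 1.30 ± 0.16 (SE, n = 3 arrays per group), a 2.46-fold rise (adjusted p = 0.00299), and 3 further probes of the gene changed by 0.93, 0.74 and 0.47. Without background correction CYP4Z1 changed by 0.90. Of the 8 CYP4 enzymes tested, 7 had a change above 0 with a list median of 0.10, and CYP4Z1 was the 1 called. CYP4F12, another member, changed by 0.59 ± 0.14 (adjusted p = 0.0965).

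GPER1, a membrane receptor that responds to oestrogen, had log2 signals of 8.15, 7.69 and 8.37 with perifosine and of 9.12, 9.17 and 9.19 with the combination. The combination arrays were close together, and perifosine array B was the lowest of the 6. GPER1 rose by 1.09 ± 0.15 (adjusted p = 0.00525). Its probes disagreed, since the other 2 changed by 0.88 and -0.31, and the mean of the 3 probes changed by 0.55 without passing the test (adjusted p = 0.0623). The 5 other steroid receptors tested were not called, and the list median was 0.03.

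C4BPB, the beta chain of C4b-binding protein, an inhibitor of complement, had signals of 9.07, 9.25 and 9.0 with perifosine and of 10.62, 9.85 and 10.32 with the combination. The groups did not overlap, with combination array B the nearest to perifosine, and the rise was 1.16 ± 0.19 (adjusted p = 0.0128). A second probe changed by 0.35, and the mean of both probes did not pass. The 5 complement regulators tested all had a change above 0, with a median of 0.23, and the 4 others were not called. CAV1, the main protein of caveolae, rose by 0.63 ± 0.13 (adjusted p = 0.0394), from 11.38, 11.52 and 11.17 to 12.14, 11.85 and 11.97, and its call was lost with the mean of its probes. All 7 caveolar genes had a change above 0, with a median of 0.25, and the other 6 were not called.

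The calls of CYP4Z1 and GPER1 held in each of the 12 leave-one-out fits, which each left out 1 array. That of C4BPB ended without perifosine array A or C or combination array A or C (adjusted p up to 0.0738), and that of CAV1 in 9 of the 12 fits, perifosine array B, control array C and sorafenib array C being the exceptions (up to 0.153). With only the 6 arrays compared in the fit, GPER1 (0.0501), C4BPB (0.0547) and CAV1 (0.153) were not called, and CAV1 was not called without the filter on dim probes either (0.0937).

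Among the rises were genes of amino acid synthesis and of the stress response. Over the lists for synthesis, one-carbon metabolism, stress factors and stress hormones, 6 of 38 genes were called higher and 0 lower. The shares of all genes tested were 0.528% and 0.161%. Each of these lists held a call. The lists for amino acid transporters and aminoacyl-tRNA synthetases, with 0 of 11 and 0 of 18 genes called, are not in this count. With them the lists hold 67 genes tested and no further call. The lists counted were chosen with earlier results of these data known, so the count is not a test. PSAT1, an enzyme of serine synthesis, had signals of 12.05, 12.06 and 12.10 with perifosine and of 13.10, 12.97 and 13.09 with the combination. The spread within each group was far smaller than the gap between them, and PSAT1 rose by 0.99 ± 0.10 (adjusted p = 0.000904, with KRTAP9-4 the smallest of the comparison). ASNS, which makes asparagine, had signals of 13.64, 13.44 and 13.69 against 14.46, 14.43 and 14.28. It rose by 0.80 ± 0.11 (adjusted p = 0.00646) with no overlap of the arrays, while a second probe changed by 0.41 and the mean of both did not pass. ASS1, which joins citrulline to aspartate on the way to arginine, rose from 7.88, 7.30 and 7.69 to 9.03, 8.84 and 8.79. Its change was 1.26 ± 0.21 (adjusted p = 0.013), with perifosine array B the lowest of the 6, and a second probe changed by 0.87. Without background correction ASS1 changed by 0.90.

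The promoter of ASNS is printed here because it holds the element through which ATF4 is known to bind this gene. The sequence runs from 250 bases before to 50 bases after the start of the gene, from RefSeq on GRCh38.p14, at chr7:97872359-97872658 on the minus strand, and the capitals mark the element of the form TGATGNAA.
ASNS: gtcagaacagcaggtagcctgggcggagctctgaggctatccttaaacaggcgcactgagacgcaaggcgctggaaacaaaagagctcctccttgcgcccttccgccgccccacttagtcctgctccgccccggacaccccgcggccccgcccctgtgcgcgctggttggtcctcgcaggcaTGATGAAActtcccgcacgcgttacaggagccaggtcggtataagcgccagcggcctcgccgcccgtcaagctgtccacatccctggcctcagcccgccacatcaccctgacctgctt
Both strands were searched, and the match in ASNS began 68 bases before the start site. The element was found in 3.67% of all 27305 promoters searched and in 2.18% of the 11003 promoters of genes tested. It was found in 15 of the 55 promoters of the stress and amino acid lists, or 27.3%, here with the transporters and synthetases included. Among the called rises it was found in 3 of the 60 genes with a promoter entry, or 5.0%, and the windows of PSAT1 and VLDLR do not hold these letters. A match is a description of the letters and not evidence of binding.

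Of the 12 amino acid synthesis genes tested, PSAT1, ASNS and ASS1 rose and none fell, 9 had a change above 0 and the median was 0.18. CTH, which makes cysteine, changed by 0.54 ± 0.13 (adjusted p = 0.0837), and PSPH, the last enzyme of serine synthesis, by 0.43 ± 0.12 (0.147), both without passing. In one-carbon metabolism, 1 of 7 genes rose, the mitochondrial folate enzyme MTHFD2, by 0.53 ± 0.10 (adjusted p = 0.0384). Its signals were 12.59, 12.79 and 12.64 with perifosine and 13.12, 13.22 and 13.26 with the combination. None of the 11 amino acid transporters was called, with a median of 0.21, and SLC7A5 changed by 0.42 ± 0.21 (adjusted p = 0.415). None of the 18 aminoacyl-tRNA synthetases was called, 14 had a change above 0, and the arrays of 7 did not overlap in the upward direction, against 9.85% of all genes tested. AARS1 came nearest, with a change of 0.47 ± 0.10 (adjusted p = 0.0592), followed by MARS1 with 0.55 ± 0.13 (0.0837).

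All 15 stress response factors and their targets had a change above 0, with a median of 0.29 against -0.0013 over all genes tested, and the arrays of 8 did not overlap in the upward direction, against 9.85% of all genes. VLDLR, a lipoprotein receptor, was the 1 member called. Its signals were 9.36, 9.31 and 9.22 with perifosine and 10.05, 10.00 and 10.09 with the combination, a rise of 0.75 ± 0.11 (adjusted p = 0.00646). ATF4 itself changed by 0.32 ± 0.11 (adjusted p = 0.238), DDIT3, which encodes CHOP, by 0.45 ± 0.13 (0.166) and the pseudokinase gene TRIB3 by 0.62 ± 0.15 (0.0965). CHAC1, which degrades glutathione, changed by 0.77 ± 0.19 (adjusted p = 0.0965), with 2 of 3 perifosine arrays above background.

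Of the 4 secreted stress hormones tested, INHBE, the subunit of activin E, rose from 9.03, 8.86 and 9.02 to 10.43, 9.63 and 10.29. The change was 1.15 ± 0.21 (adjusted p = 0.0227), and combination array B lay below the other 2 of its group but above all perifosine arrays. GDF15 changed by 0.10 ± 0.15 (adjusted p = 0.832) and was above background on 1 perifosine and 2 combination arrays. FGF21 was not well above background on any of the 6 arrays. Endoplasmic reticulum chaperones were not among the rises, with 0 of 15 called by limma, 10 of 15 changes below 0 and a median of -0.06. HSPA5, the main chaperone of that compartment, changed by -0.27 ± 0.14 (adjusted p = 0.413).

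PSAT1, ASNS and VLDLR kept their calls in each of the 12 fits that left out 1 array. The call of ASS1 ended without perifosine array B or any 1 combination array (adjusted p up to 0.0679), and without both perifosine array B and sorafenib array C (0.0501). That of INHBE ended without any 1 perifosine array or combination array A or C (up to 0.127) and without that pair (0.0914), and that of MTHFD2 in 11 of the 12 fits, sorafenib array C being the exception (up to 0.17). With only the 6 arrays in the fit ASNS (0.0517), INHBE (0.0609) and MTHFD2 (0.16) were not called, nor were INHBE (0.058) and MTHFD2 (0.0951) without the filter on dim probes.

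**Figure D2:**
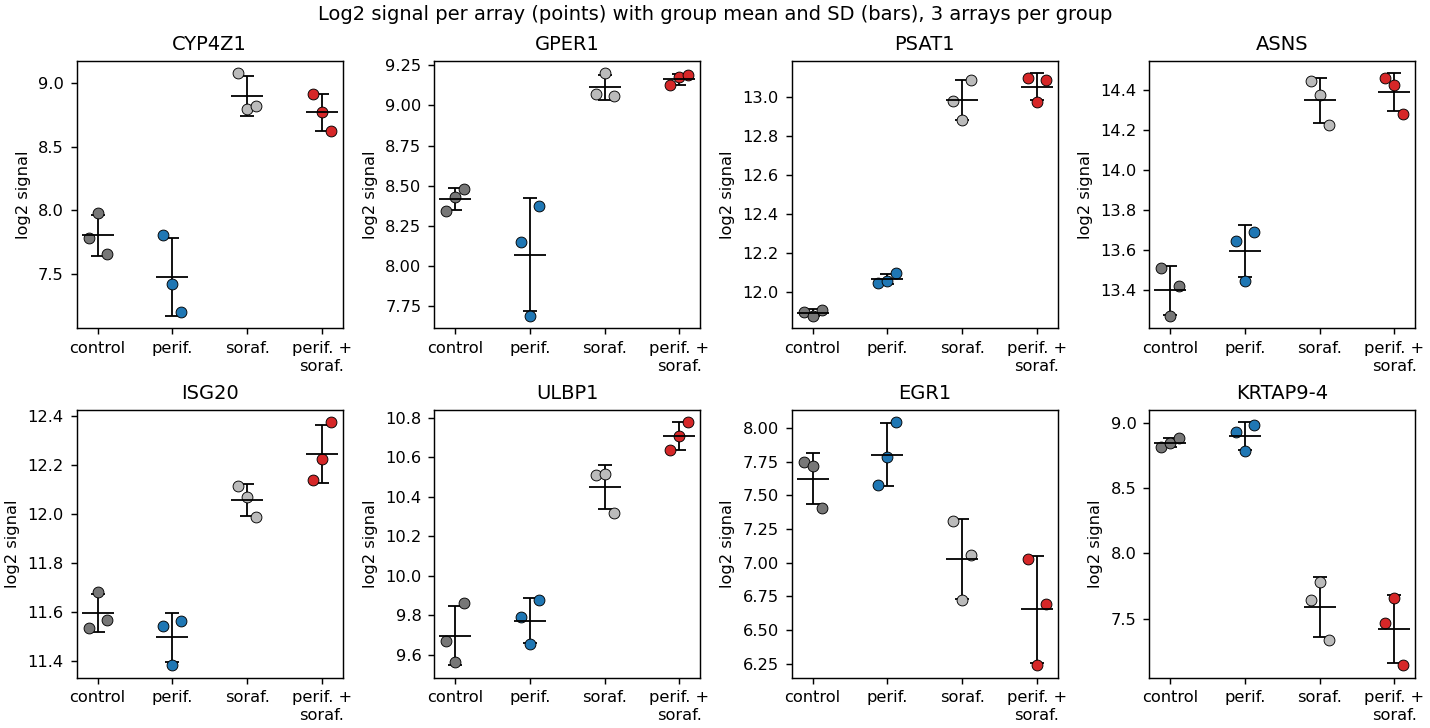
Log2 signal of 8 genes on the 3 arrays of each group (points), with the group mean and SD (bars). The combination arrays lie above all perifosine arrays for CYP4Z1, GPER1, PSAT1, ASNS, ISG20 and ULBP1 and below all of them for EGR1 and KRTAP9-4, and the sorafenib arrays lie on the same side of the untreated controls.

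Immediate-early genes did not move together. EGR1, a zinc finger factor induced by ERK, had signals of 7.58, 7.79 and 8.04 with perifosine and of 7.03, 6.24 and 6.69 with the combination. Every combination array was lower, and 1 of the 3 was above background, against all 3 perifosine arrays. EGR1 fell by 1.15 ± 0.20 (adjusted p = 0.0225), and the change was -0.63 without background correction. FOS, which pairs with JUN to form AP-1, had signals of 7.87, 7.78 and 7.70 against 6.67, 6.74 and 7.11. It fell by 0.94 ± 0.15 (adjusted p = 0.0128), with 2 of 3 combination arrays above background, and its change without background correction was -0.53. JUN went the other way, from 12.09, 12.08 and 12.20 to 12.67, 12.75 and 12.71, a rise of 0.59 ± 0.12 (adjusted p = 0.049).

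The EGR1 promoter is shown because serum response factor and the ERK-dependent factors bound to it act on this gene through CArG boxes, which the capitals mark. It is the window at chr5:138465229-138465528 on the plus strand, from RefSeq on GRCh38.p14.
EGR1: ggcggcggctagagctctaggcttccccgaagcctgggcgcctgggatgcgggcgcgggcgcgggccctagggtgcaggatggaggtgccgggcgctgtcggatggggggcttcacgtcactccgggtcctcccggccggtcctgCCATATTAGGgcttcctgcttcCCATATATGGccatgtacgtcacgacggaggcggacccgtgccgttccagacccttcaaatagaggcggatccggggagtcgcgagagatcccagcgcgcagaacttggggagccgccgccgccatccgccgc
The boxes began 105 and 83 bases before the start site, with both strands searched. A CArG box was found in 1.29% of all 27305 promoters and in 1.12% of those of genes tested. It was found in 2 of the 15 immediate-early genes with a promoter entry, and the FOS window of this length holds none.

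Of the 21 immediate-early genes tested, EGR1 and FOS fell and JUN rose, against 0.161% called lower and 0.528% higher of all genes tested. The list median was 0.02. FOSL1 changed by -0.40 ± 0.13 (adjusted p = 0.222), JUND by 0.40 ± 0.10 (0.1) and MYC by 0.11 ± 0.14 (0.77). Among 12 genes of ERK feedback, DUSP5, a nuclear ERK phosphatase, fell from 13.47, 13.45 and 13.35 to 12.89, 12.91 and 12.91, by 0.52 ± 0.10 (adjusted p = 0.0271). DUSP6, the cytoplasmic ERK phosphatase, changed by -0.61 ± 0.22 (adjusted p = 0.253), and ETV5, an ETS factor induced by ERK, by -0.61 ± 0.15 (0.101). SPRY4 changed by 0.04 ± 0.21 (adjusted p = 0.96) and DUSP4 by 0.03 ± 0.12 (0.944). The changes of the 12 ran from -0.61 to 0.10 with a median of -0.03, and the arrays of 4 did not overlap in the downward direction and those of 0 in the upward direction, against 8.29% and 9.85% of all genes tested.

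In the lists for the drugs' own targets and their pathways, 1 gene passed the test, and it is an activator of p38 rather than of ERK. Of 12 genes listed for the RAF and MEK cascade, 11 were not called. MAP2K6, the activator of p38, rose from 6.03, 6.28 and 6.25 to 7.02, 7.23 and 6.98 (adjusted p = 0.0412). It was not well above background on any perifosine array, so that the data bound the rise at at least 1.285-fold: a bound sets the mean combination signal against the lowest signal above background on each perifosine array. None of the 8 receptor targets of sorafenib was called by limma, nor any of the 20 genes of PI3K, AKT and mTOR, with medians of 0.05 and -0.05. AKT1 changed by -0.05 ± 0.13 (adjusted p = 0.917) and MAP2K1, which encodes MEK1, by -0.15 ± 0.10 (0.56). Over all genes tested, 1804 had an unadjusted p under 0.05.

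The calls of EGR1 ended without perifosine array B or C or combination array B or C (adjusted p up to 0.0976), and without the pair of perifosine array B and sorafenib array C (0.082). That of FOS ended without perifosine array A or combination array A or B (up to 0.0712). The call of DUSP5 ended without control array A or any 1 of the 6 arrays compared (up to 0.124), that of JUN in all fits but that without sorafenib array C (up to 0.17), and that of MAP2K6 in 9 of the 12 fits (up to 0.154). Without the pair the calls of DUSP5 (0.0694), JUN (0.0615) and MAP2K6 (0.0945) ended too. EGR1, DUSP5 and JUN were not called with only the 6 arrays in the fit (0.0675 to 0.151), nor, with MAP2K6, without the filter on dim probes (0.058 to 0.112).

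Of 40 interferon-stimulated genes tested, ISG20 and IFIT3 rose and none fell, against 0.528% called higher and 0.161% lower of all genes tested. ISG20, an exonuclease that degrades single-stranded RNA, had signals of 11.54, 11.38 and 11.56 with perifosine and of 12.14, 12.22 and 12.37 with the combination. The groups were clearly apart, and the rise was 0.75 ± 0.10 (adjusted p = 0.00646). IFIT3, which belongs to a family that binds foreign RNA, had signals of 8.31, 8.44 and 8.66 against 9.27, 9.32 and 9.23. It rose by 0.81 ± 0.13 (adjusted p = 0.012), but its other 2 probes changed by 0.72 and -0.14 and the mean of its probes did not pass. The list as a whole had a median of 0.14, with 28 of 40 changes above 0. The arrays of 12 members did not overlap in the upward direction and those of 2 in the downward direction, against 9.85% and 8.29% of all genes tested. MX2, which blocks viral nuclear import, changed by 0.68 ± 0.17 (adjusted p = 0.112) and MX1 by 0.36 ± 0.14 (0.283). SAMD9 had the lowest value of the list, -0.44 ± 0.12 (adjusted p = 0.13).

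The promoters of these genes are shown for the interferon-stimulated response element, read here as 2 copies of GAAA with 2 further bases between them, which interferon regulatory factors and the ISGF3 complex are known to bind, with matches on either strand in capitals. The windows are chr10:89327747-89328046 for IFIT3 and chr15:88638766-88639065 for ISG20, both on the plus strand, from RefSeq on GRCh38.p14.
IFIT3: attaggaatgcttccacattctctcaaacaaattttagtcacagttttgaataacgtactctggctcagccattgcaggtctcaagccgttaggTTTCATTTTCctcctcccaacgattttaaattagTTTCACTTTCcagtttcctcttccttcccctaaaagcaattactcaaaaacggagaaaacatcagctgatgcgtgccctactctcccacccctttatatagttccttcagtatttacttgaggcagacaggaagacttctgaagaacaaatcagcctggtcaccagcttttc
ISG20: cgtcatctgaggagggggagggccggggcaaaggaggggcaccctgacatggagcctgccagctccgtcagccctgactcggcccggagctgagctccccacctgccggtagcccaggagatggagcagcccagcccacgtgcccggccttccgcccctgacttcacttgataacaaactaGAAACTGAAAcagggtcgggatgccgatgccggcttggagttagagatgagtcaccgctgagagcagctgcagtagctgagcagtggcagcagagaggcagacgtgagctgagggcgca
The matches in IFIT3 began 156 and 122 bases before the start site and lie on the reverse strand, and the match in ISG20 began 69 bases before it. The element was found in 3.65% of all promoters, in 3.14% of those of genes tested and in 20 of the 32 interferon-stimulated genes with an entry, or 62.5%. Among called genes with an entry it was found in 7 of the 60 rises, or 11.7%, and in 2 of the 12 falls, or 16.7%.

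Hodgkin cells are known for the chemokines and surface molecules through which they draw and hold T cells. CCL17, a chemokine that attracts T cells bearing CCR4, had signals of 14.32, 14.62 and 14.49 with perifosine and of 15.28, 15.02 and 15.11 with the combination. It rose by 0.66 ± 0.12 (adjusted p = 0.0272) with no overlap of the arrays. CXCL10, an interferon-induced chemokine whose receptor is CXCR3, went the other way, from 10.62, 10.80 and 10.84 to 10.05, 9.70 and 9.96. It fell by 0.85 ± 0.13 (adjusted p = 0.012). FCER2, which encodes CD23, rose by 0.62 ± 0.13 (adjusted p = 0.049). These were the 3 genes called of the 32 in the list, against 0.690% of all genes tested. The list median was 0.21, with 23 changes above 0. FSCN1, which bundles actin and marks these cells, changed by 0.55 ± 0.12 (adjusted p = 0.0518), CCL5 by 0.73 ± 0.20 (0.139) and CD274, which encodes PD-L1, by -0.48 ± 0.11 (0.0768). TNFRSF8, which encodes CD30, changed by -0.24 ± 0.16 (adjusted p = 0.562).

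Of 26 genes of NF-kB and its targets, the adaptor gene TRAF1 rose by 0.65 ± 0.13 (adjusted p = 0.0451). CXCL8, which attracts neutrophils, fell from 7.34, 7.31 and 7.29 to 6.63, 6.68 and 6.74, by 0.63 ± 0.11 (adjusted p = 0.0237). CXCL8 was above background on 1 of the 3 combination arrays, and its call was lost with the mean of its probes and, with a change of -0.32, without background correction (adjusted p = 0.0673). TRAF1 and CXCL8 were the only calls of this list, while 0.690% of all genes tested were called. The list median was 0.04, and NFKBIA, a feedback inhibitor of NF-kB, changed by 0.39 ± 0.13 (adjusted p = 0.23). None of the 18 JAK, STAT and SOCS genes was called by limma, and STAT6 changed by 0.46 ± 0.12 (adjusted p = 0.115).

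Ligands and receptors of the TNF family and of cytotoxic lymphocytes were among the single genes that moved. ULBP1, a ligand of the natural killer cell receptor NKG2D, had signals of 9.79, 9.65 and 9.88 with perifosine and of 10.64, 10.71 and 10.78 with the combination. It rose by 0.94 ± 0.11 (adjusted p = 0.00299) without overlap, while the 5 other NKG2D ligands tested were not called, with MICA at -0.28 ± 0.12 (adjusted p = 0.339) and MICB at -0.25 ± 0.12 (0.395). TNFSF13B, which encodes the B cell survival factor BAFF, rose from 9.61, 10.10 and 9.58 to 10.55, 10.77 and 10.78, by 0.94 ± 0.14 (adjusted p = 0.00992). TNFRSF21, death receptor 6, rose from 7.86, 7.97 and 7.64 to 8.74, 8.88 and 8.78, by 0.97 ± 0.12 (adjusted p = 0.00299). TNFRSF10A, a receptor of the death ligand TRAIL, fell from 9.48, 9.40 and 9.59 to 8.92, 8.97 and 8.85, by 0.58 ± 0.10 (adjusted p = 0.0225). Its relative TNFRSF10B changed by -0.07 ± 0.12 (adjusted p = 0.86).

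MLKL, which carries out necroptosis, rose by 0.56 ± 0.12 (adjusted p = 0.0491), from 10.05, 9.85 and 10.13 to 10.71, 10.47 and 10.54. With TNFRSF10A it was 1 of 2 genes called among 18 death receptors and caspases, against 0.690% of all genes tested. The median of that list was 0.05. None of the 13 BCL2 family genes was called by limma. PMAIP1, which encodes NOXA, changed by 0.68 ± 0.17 (adjusted p = 0.0965), BAX by -0.47 ± 0.13 (0.15) and MCL1 by -0.25 ± 0.12 (0.403). Among 16 MHC genes, HLA-F, a non-classical class I molecule, rose by 0.55 ± 0.11 (adjusted p = 0.0491) and HLA-B changed by -0.03 ± 0.10 (0.923). The call of HLA-F rests on a probe of a family of similar genes, and the mean of its probes did not pass.

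ISG20, ULBP1 and TNFRSF21 kept their calls in each fit that left out 1 array. IFIT3, CCL17, CXCL10, CXCL8, TNFSF13B and TNFRSF10A lost theirs in 3 to 6 of the 12 fits, in each case without a perifosine or a combination array (adjusted p up to 0.125). FCER2, TRAF1, HLA-F and MLKL lost theirs in 11 or 12 of the 12 fits (up to 0.215), and without the pair of perifosine array B and sorafenib array C (0.102 to 0.133). With only the 6 arrays in the fit ISG20 (0.0598) and each of these 10 genes were not called (0.0547 to 0.173), and without the filter on dim probes CCL17, CXCL8, TNFRSF10A, FCER2, TRAF1, HLA-F and MLKL were not (0.0601 to 0.115).

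The keratin-associated proteins, which fill the hair shaft and form large clusters of similar genes, had the lowest median of the 46 lists. The lists were chosen with earlier results of these data known, so this rank is not a test. KRTAP9-4 had signals of 8.93, 8.78 and 8.99 with perifosine and of 7.46, 7.66 and 7.14 with the combination, the furthest fall of the comparison. It fell by 1.48 ± 0.14 (adjusted p = 0.000904), or 2.79-fold, and a second probe changed by -0.75. KRTAP9-3 fell from 8.88, 8.70 and 8.78 to 7.51, 7.38 and 7.72, by 1.25 ± 0.17 (adjusted p = 0.00646). KRTAP9-8 fell from 8.29, 8.14 and 8.23 to 7.17, 6.99 and 7.28, by 1.07 ± 0.12 (adjusted p = 0.00183), though the mean of its probes did not pass and the change was -0.67 without background correction. KRTAP1-5 fell from 7.26, 7.49 and 7.25 to 6.81, 6.02 and 6.33 (adjusted p = 0.0352), with 1 combination array above background, and changed by -0.46 without background correction. All 8 members tested had a change below 0, with a median of -0.89, and the 4 others were not called. KRTAP9-9 changed by -0.84 ± 0.26 (adjusted p = 0.184). Since members have near-identical sequences, their probes may share targets, and the 4 calls are not 4 independent measurements. KRTAP1-5 lost its call in 8 of the 12 leave-one-out fits (adjusted p up to 0.164) and without the pair of perifosine array B and sorafenib array C (0.109), while the others kept theirs in all of these fits. It was not called with only the 6 arrays in the fit (0.12) or without the filter on dim probes (0.0831).

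MIR503HG, a non-coding transcript on the X chromosome, had signals of 12.08, 11.24 and 12.001 with perifosine and of 10.70, 10.13 and 10.56 with the combination. Array B was the lowest of each group, and the groups did not overlap. The transcript fell by 1.31 ± 0.24 (adjusted p = 0.0272), a call that ended without perifosine array A or C or any 1 combination array (up to 0.122), with only the 6 arrays in the fit (0.0675) and without the filter on dim probes (0.0665). It is the host of miR-503 and lies beside miR-424, whose mature forms are shown because they share most of their seed (bases 2 to 8, in capitals), with positions from RefSeq on GRCh38.p14, chrX:134546371-134546393 and chrX:134546680-134546701, both on the minus strand.
hsa-miR-503-5p: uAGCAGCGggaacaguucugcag
hsa-miR-424-5p: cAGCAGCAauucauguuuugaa
Both are known to target cell cycle transcripts, and the probes used here did not measure the mature forms. The 3 other host transcripts tested were not called, with a list median of -0.08. MIR99AHG, the host of miR-99a, let-7c and miR-125b-2, was named after its values were seen. It rose from 7.72, 7.58 and 7.59 to 8.23, 8.15 and 8.21, by 0.57 ± 0.11 (adjusted p = 0.0321).

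**Figure D3:**
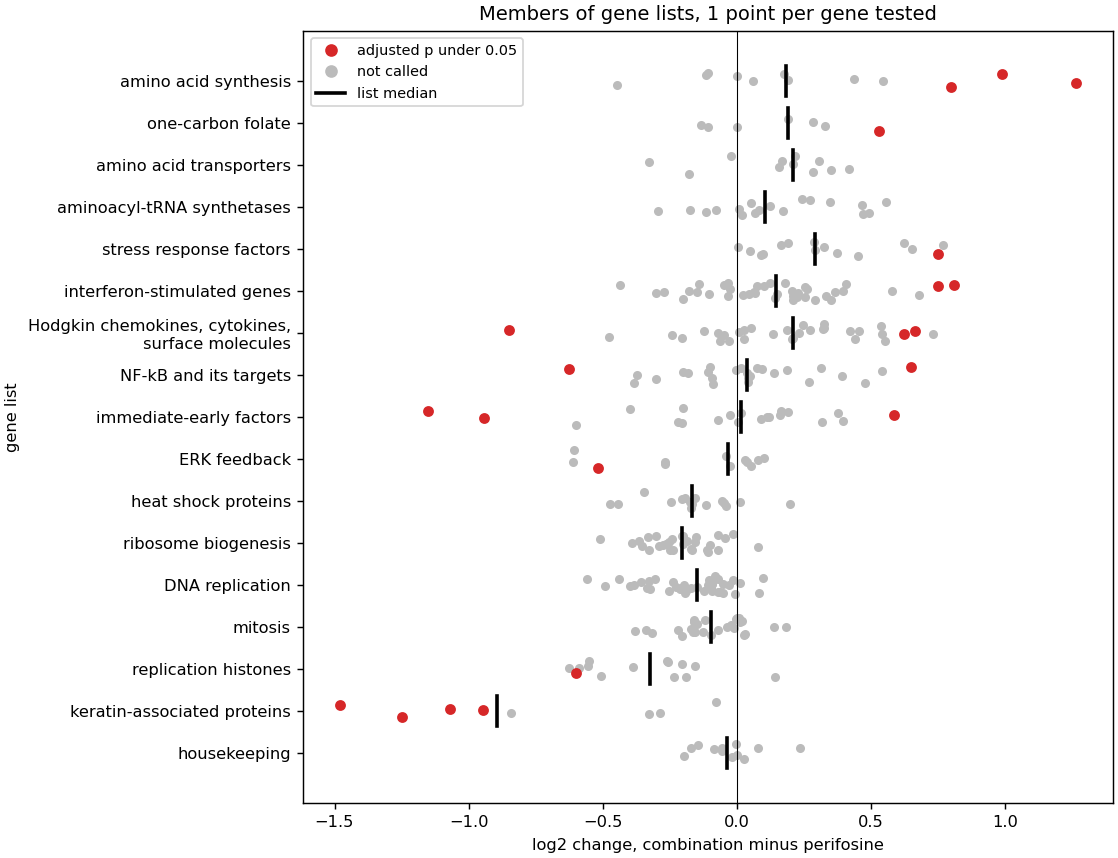
Change in log2 signal on adding sorafenib to perifosine (horizontal axis) for the tested members of 17 gene lists (vertical axis), 1 point per gene, with called genes in red, uncalled genes in grey and the list median as a bar. The keratin-associated proteins have the lowest median, -0.89, the stress response factors one of 0.29 with all 15 points above 0, and the ribosome biogenesis and DNA replication lists lie mostly below 0 without a call.

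Lists of growth and division had medians slightly below 0, with H4C8 the 1 gene called among the lists for replication, mitosis, histones and ribosome biogenesis. Of 39 DNA replication genes, 36 had a change below 0, with a median of -0.15, and the arrays of 13 did not overlap in the downward direction, against 8.29% of all genes tested. None was called by limma. RRM2, a subunit of ribonucleotide reductase, changed by -0.49 ± 0.13 (adjusted p = 0.126), MCM2 of the replicative helicase by -0.40 ± 0.12 (0.181) and DNA ligase LIG1 by -0.36 ± 0.10 (0.151). Of 30 ribosome biogenesis genes, 29 had a change below 0, with a median of -0.20 and no call. NOP56 changed by -0.39 ± 0.15 (adjusted p = 0.293) and nucleolin, NCL, by -0.37 ± 0.12 (0.227). Mitotic genes had a median of -0.10, with 20 of 27 below 0 and none called.

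Replication histones lay lower still, with 13 of 14 changes below 0, a median of -0.33 and the arrays of 7 not overlapping in the downward direction, against 8.29% of all genes tested. H4C8, which encodes histone H4, fell from 8.98, 8.80 and 9.05 to 8.30, 8.44 and 8.28, by 0.60 ± 0.11 (adjusted p = 0.0294). Its call ended without control array A, perifosine array A or C, sorafenib array B or any 1 combination array (up to 0.158), with only the 6 arrays in the fit (0.134) and without the filter on dim probes (0.0777). Histone genes are near-identical copies that a probe may not separate. H2BC4 changed by -0.63 ± 0.13 (adjusted p = 0.0517) and H2BC21 by -0.59 ± 0.14 (0.0886). Heat shock proteins had a median of -0.17, with 14 of 16 changes below 0 and none called, and DNAJB1, an HSP40 co-chaperone, changed by -0.47 ± 0.11 (adjusted p = 0.0753). The 12 housekeeping genes had a median of -0.04 with no call. The array values were scaled to a common distribution, so these medians are relative to all genes and say nothing of total RNA per cell.

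UTP14A, which acts in making the small ribosomal subunit and is in none of the lists, fell from 12.01, 11.81 and 11.86 to 11.22, 11.19 and 11.31. Its change was -0.65 ± 0.10 (adjusted p = 0.0111). The importin IPO4 fell by 0.65 ± 0.13 (adjusted p = 0.0363), the endothelin-converting enzyme ECE2 by 0.66 ± 0.12 (0.0225) and the aldo-keto reductase AKR1B15 by 0.77 ± 0.12 (0.0128). A second probe of ECE2 changed by -0.29, and the mean of both did not pass. The proprotein convertase FURIN fell by 0.56 ± 0.10 (adjusted p = 0.0227), CLDND1 by 0.53 ± 0.11 (0.0414) and TPRG1 by 0.75 ± 0.12 (0.0125). A pair of small nucleolar RNAs also fell, SNORA10 with -0.65 ± 0.13 (adjusted p = 0.049) and SNORD14C with -0.52 ± 0.11 (0.046). Their host genes were not called, with RPS2 at -0.04 (adjusted p = 0.887) and HSPA8 at -0.25 (0.289). The call of UTP14A ended without perifosine array A or combination array A or B (up to 0.0621). The other calls of this group ended in 3 to 11 of the 12 leave-one-out fits (up to 0.224), and without perifosine array B and sorafenib array C those of IPO4, ECE2, FURIN, CLDND1 and SNORD14C ended (0.0565 to 0.108). With only the 6 arrays in the fit none of the 9 genes of this group was called by limma (0.0598 to 0.167), and without the filter on dim probes IPO4, ECE2, FURIN, CLDND1, SNORA10 and SNORD14C were not (0.058 to 0.112). The probe of AKR1B15 may also read its close copy AKR1B10.

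Further genes among the 20 furthest rises had no shared list. TMEM158, a membrane protein known to be induced by RAS, rose by 0.98 ± 0.14 (adjusted p = 0.00646), the SRC-binding adaptor AFAP1L2 by 0.96 ± 0.17 (0.0227) and the alpha kinase ALPK2 by 0.95 ± 0.11 (0.00295). ODAPH, known from enamel formation, rose from 7.83, 7.58 and 8.12 to 9.09, 8.68 and 8.95, by 1.06 ± 0.17 (adjusted p = 0.0128). SNTB1, a syntrophin, rose by 0.90 ± 0.10 (adjusted p = 0.00183), the chitinase-like CHI3L2 by 0.88 ± 0.12 (0.00525) and ASB9 by 0.86 ± 0.12 (0.00646). The annexin ANXA8 rose by 0.96 ± 0.12 (adjusted p = 0.00388), but its second probe changed by 0.02 and the mean of both did not pass. The non-coding HGC6.3 (adjusted p = 0.0258) and the cytolinker EPPK1 (0.0227) were not well above background on any perifosine array. Their signals were at least 1.44-fold and at least 1.29-fold higher with the combination. HGC6.3 was above background on 0 control, 2 sorafenib and 3 combination arrays, and EPPK1 on 0, 1 and 3. Without the combination arrays neither met the filter of 3 of 12 arrays, so their p-values are not a test of a rise. The calls of ODAPH, AFAP1L2, HGC6.3 and EPPK1 ended in 4 or 5 of the 12 leave-one-out fits (adjusted p up to 0.15), each a fit without a perifosine or combination array, and those of ODAPH (0.0565) and HGC6.3 (0.0803) ended without perifosine array B and sorafenib array C. None of these 4 was called by limma with only the 6 arrays in the fit (0.0517 to 0.0598), and AFAP1L2, HGC6.3 and EPPK1 were not without the filter on dim probes (0.058 to 0.0634).

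The same drug was added without perifosine in the remaining 6 arrays. Sorafenib alone called 112 genes against untreated cells, or 0.822% of those tested (0.550% higher and 0.272% lower), and the arrays did not overlap for 21.7% (11.4% higher and 10.3% lower). The comparisons share no array, but both were taken from the same fit, so that each gene had the same SE in both. A gene with a small spread was therefore favoured in both, and the calls that they share are not independent. With only the 6 arrays of a comparison in its fit, 21 genes were called on perifosine and 23 without it. Of the 94 genes called on perifosine, 49 were called without it, all with the same sign, 36 higher and 13 lower. They are 52.1% of the 94 and 43.8% of the 112. In all, 90 of the 94 had the same sign in both comparisons. The median change of the 72 rises was 0.72 with perifosine and 0.58 without, and that of the 22 falls -0.65 and -0.59, where the first value of each pair comes from the comparison that chose the genes.

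CYP4Z1 rose by 1.30 with perifosine and by 1.10 without (adjusted p = 0.00638), and PSAT1 by 0.99 and by 1.09 (0.000488). ASNS rose by 0.80 with perifosine and by 0.95 without (adjusted p = 0.00198), and GPER1 by 1.09 and by 0.69 (0.0461). ISG20, with 0.75 on perifosine, changed by 0.46 without it (adjusted p = 0.0633), and EGR1, with -1.15, by -0.60 (0.193). CTH, at 0.54 with perifosine, rose by 1.04 without it. Of the 12 amino acid synthesis genes tested, 5 were called higher without perifosine and 3 with it. Passing in one comparison and not in the other does not show a difference, and the difference itself was tested as an interaction.

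No gene passed that test by limma, 0 of 13626 (0%), while 1036 had an unadjusted p under 0.05 and the smallest adjusted p was 0.383. The median SE of the interaction was 0.2037, against 0.144 for the combination against perifosine, so differences of moderate size can be missed. Of the 94 genes, 14 had an unadjusted interaction p under 0.05, with a smallest adjusted p of 0.579. The 4 whose sign differed were EPPK1, HLA-F, NDUFB10 and PCDHB3, the last 2 being named after their values were seen. For EPPK1 and PCDHB3 no direction can be read without perifosine, since EPPK1 was above background on 0 control and 1 sorafenib arrays and PCDHB3 on 0 of either. HLA-F changed by -0.08 ± 0.11 without perifosine, an interaction of 0.62 (unadjusted p = 0.00191). NDUFB10, a subunit of respiratory complex I, rose by 0.65 ± 0.12 with perifosine (adjusted p = 0.0237) and changed by -0.03 ± 0.12 without it. PCDHB3, a protocadherin, was above background on 0 perifosine arrays and on all 3 combination arrays, with a signal at least 1.10-fold higher in the combination. It met the filter of 3 of 12 arrays only through the combination arrays, where it is high. Its limma call (adjusted p = 0.00997) is therefore not a test of a rise. UTP14A changed by -0.10 without perifosine, an interaction of -0.55 (unadjusted p = 0.00205), its mean signal being 11.70 ± 0.05 (SD, n = 3) in controls, 11.89 ± 0.10 with perifosine, 11.60 ± 0.10 with sorafenib and 11.24 ± 0.06 with both.

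**Figure D4:**
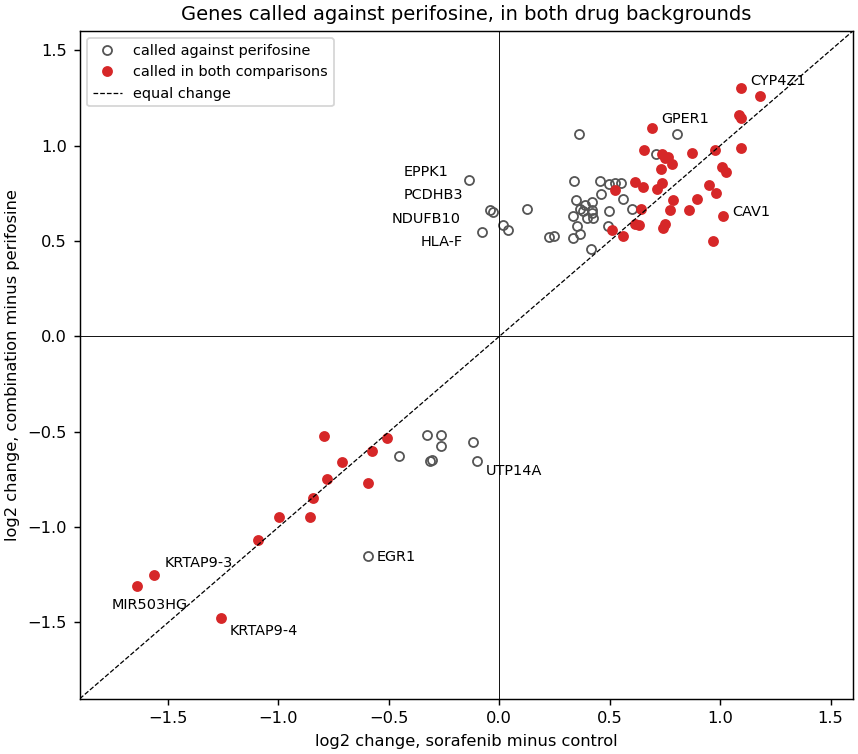
Change in log2 signal on adding sorafenib to perifosine (vertical axis) against the change on adding sorafenib to untreated cells (horizontal axis) for the 94 genes called on perifosine. Filled points are the 49 called in both comparisons, open points the others, and the dashed line marks equal change. Points lie in the upper right and lower left quadrants except EPPK1, HLA-F, NDUFB10 and PCDHB3, which lie close to 0 on the horizontal axis.

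The perifosine arrays set the baseline of the main comparison. Among the 72 rises, 40 had a perifosine mean below that of the untreated cells, and among the 22 falls, 15 had one above it. The genes were chosen by their difference from the perifosine arrays, which by itself favours such counts. No conclusion is drawn from them. Over all genes tested, the arrays did not overlap in both comparisons in the same direction for 432 genes that were higher and 263 that were lower, and in opposite directions for 41 and 35 genes. For 36 of the 94 genes several probes passed the filter, and another probe went the opposite way for GPER1 and IFIT3. Of the 94, 62 belonged to none of the 46 gene lists, and 25 lists held no called gene.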

How the data were processed

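Total RNA of HDLM-2 cells was measured on Illumina bead arrays. The authors deposited 1 linear intensity for each probe on each array. The submitters' processing notes name BeadStudio, and how the values were normalized is not stated there. Sorted values differed between the 12 arrays by a median of 0.052%, so the deposited intensities already shared a distribution. A second table has 24 columns whose names match no sample, and it was not used here.

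From the deposited intensities, limma 3.58.1 in R 4.3.3 applied normexp background correction (offset 16), quantile normalization and log2. Probes were kept that lay above a threshold (224 to 225, the upper 5% point of the dim probes) on at least 3 of 12 arrays, where 21929 to 22122 probes per array were above it. Of 48803 probes, 28098 had 1 gene symbol in the platform annotation, 13 had several and 20692 had none. The brightest passing probe stood for each of 13626 genes, 3678 of which had several. The number of arrays limits the precision.

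A limma fit over all 12 arrays gave 1 mean per group, with contrasts for the combination against perifosine, sorafenib against control and their difference, and Benjamini-Hochberg adjusted p-values were called under 0.05. The fit was tested on simulated data. Named genes are the 20 largest called rises and falls with arrays that do not overlap, CYP4Z1, GPER1, EGR1 and ISG20, the called members of the lists, up to 6 other members per list by role and the 3 smallest p-values of the interaction. The genes, lists and rule were chosen with earlier results of these data known. The labels do not say whether replicate letters pair the samples, and the main fit did not pair them. Deviations of perifosine and combination arrays of the same letter correlated at -0.0192 to 0.0111. Over all groups, 2 of 18 same-letter pairs correlated above 0.1. Alternatives changed the background correction, the filter, the probe summary, the variance model, the arrays in the fit and the replicate block.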

Additional observations from a re-analysis of the deposited data

Results flagged for a closer look

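PTPRU, DUOX2 and TTLL1 had the smallest interaction p-values of all genes tested and moved in opposite directions on adding sorafenib with and without perifosine, with arrays that did not overlap in either comparison. The interaction was 1.31 for PTPRU (unadjusted p = 3.54e-05, adjusted p = 0.383), -1.45 for DUOX2 (unadjusted p = 5.62e-05, adjusted p = 0.383) and 1.07 for TTLL1 (unadjusted p = 0.000148, adjusted p = 0.559), so none passed the limma test of the difference. All 3 were dim. PTPRU was above background on 3 control, 0 perifosine, 0 sorafenib and 2 combination arrays. DUOX2 was above background on 0 control, 1 perifosine, 2 sorafenib and 0 combination arrays. TTLL1 was above background on 3 control, 0 perifosine, 0 sorafenib and 3 combination arrays.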

How the results depend on the processing

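Counts of called genes depended on the processing, from 94 for the combination against perifosine and 112 for sorafenib against control. They were 247 and 252 without background correction, 249 and 242 with a variance trend and robust prior, 289 and 240 with array weights, 181 and 200 with genes above background on all 12 arrays, 41 and 40 with no filter on dim probes, and 21 and 23 with only the 6 arrays compared in the fit. With an offset of 50 sorafenib against control gave 170. Leaving out 1 array gave 24 (without combination replicate C) to 99 (without sorafenib replicate C) for the first comparison and 36 (without control replicate C) to 168 (without perifosine replicate B) for the second. Without both perifosine replicate B and sorafenib replicate C, an alternative chosen after seeing the data, the counts were 74 and 72. The interaction had 0 calls in each setting in which it was fitted. A replicate block gave 45 and 49 calls, 43 of the 45 being among the 94, and the labels do not say what the letters stand for. Of 53 named calls, 17 held in all 12 fits that left out 1 array, and no named gene changed sign. Named calls were lost for 36 genes with only the 6 arrays, 26 with no filter, 24 with the replicate block, 10 with the mean of probes and 1 without background correction. Of the 53, 16 were kept in the first 3 of these settings and 23 were lost in all 3, namely AFAP1L2, CAV1, CCL17, CLDND1, CXCL8, DUSP5, ECE2, EPPK1, FCER2, FURIN, H4C8, HGC6.3, HLA-F, INHBE, IPO4, JUN, KRTAP1-5, MLKL, MTHFD2, SNORA10, SNORD14C, TNFRSF10A and TRAF1. MAP2K6 was lost with no filter and with the block, EGR1 and MIR503HG with no filter and with the 6 arrays, and AKR1B15, ASNS, C4BPB, CXCL10, GPER1, IFIT3, ISG20, ODAPH, TNFSF13B, TPRG1 and UTP14A with the 6 arrays. DUOX2, uncalled otherwise, was called with array weights (-0.79, adjusted p = 0.0348). The cause of these shifts was not tested. Without background correction the changes of dim genes were over 1.5 times smaller, at -0.63 for EGR1, -0.53 for FOS, -0.32 for CXCL8, 0.40 for MAP2K6, 0.49 for HGC6.3 and 0.38 for EPPK1.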
